A study of Mus musculus with 10 samples.

Results

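Cyclins, their kinases and inhibitors, and the genes of the mitotic apparatus were compared between GFP+ leukaemia cells and GFP-CD11b+ myeloid cells sorted from mouse bone marrow. Members were taken by gene name: entries that begin with Ccna, Ccnb, Ccnd, Ccne, Cdk and a digit, Cdkn, E2f, Cenp, Kif, Aurk, Plk, Bub, Cdc20, Cdc25 or Ska and a digit, together with Rb1, Rbl1, Rbl2, Ttk, Ube2c and 5 other named proliferation genes. The rule uses no measured value, but the members were chosen with earlier results of these data known. It found 97 of the 10141 genes analysed, of which 22 are regulators of the G1 phase, 32 act in mitosis and 43 are other members, such as transport kinesins and kinases of transcription. A further 54 annotated genes match the rule but are not analysed here, among them Cdk1, Cdk2, Ccnb1, Ccnb2, Aurkb, Foxm1, Mki67, Top2a, Tpx2, Cdca8, Cdkn1a, Cdc25a, Kif11 and Ska1.

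The leukaemia cells carried the MLL-AF9 fusion and a GFP reporter. They had been given by tail vein to CD45.1 recipients, and marrow was taken once GFP+ cells were seen at a set level in blood. The comparison cells were the GFP-CD11b+ myeloid cells of the same kind of leukaemic marrow, so both groups come from recipients with leukaemia and neither is healthy marrow. Each group had 5 libraries of total RNA. The cell type and genotype fields of all 10 libraries read alike, as leukaemia cells carrying MLL-AF9/GFP, and the groups were therefore taken from the sample titles. The series' design text describes a magnetic selection of CD45.2-CD11b+ cells for the myeloid group, whereas the treatment protocol describes flow sorting for both. The promoter that drives the fusion, the age of the mice, and whether each library came from its own mouse are not given in the labels, and p-values measure the spread between these libraries, which may be technical.

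A cell enters the division cycle in G1, when D cyclins bind the kinases Cdk4 and Cdk6, and E cyclins later bind Cdk2. These kinases phosphorylate the pocket proteins Rb1, Rbl1 and Rbl2, which then let go of E2F factors, and the genes of DNA replication are switched on. Inhibitor proteins of the Cdkn families hold the kinases back, and in the marrow they accumulate as granulocyte precursors stop dividing and mature. Mitotic genes are switched on later, in G2, by a route through B-MYB and FOXM1. Many of their promoters hold CHR elements, at which the DREAM complex can bind, and CCAAT elements.

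Values per library are given as normalised reads, that is reads divided by the size factor of the library, both recovered from the deposited variance-stabilised values. The libraries held 24099521 to 30879383 recovered reads in leukaemia and 24712767 to 32247796 in myeloid cells over the genes of the table. Fold changes are ratios of mean normalised reads, whereas log2 differences are those of the variance-stabilised values, leukaemia minus myeloid, a scale that shrinks the change of genes with few reads. The defining markers went with the labels: Itgam, which encodes CD11b, averaged 12227 normalised reads in leukaemia libraries, against 97794 in myeloid libraries, and Hoxa9, a target of MLL fusions, averaged 3215, against 16.0. In bulk RNA, fewer cells of a type and less RNA per cell cannot be told apart. Markers of other cell types were present in both groups, and most had a lower mean in leukaemia. Summed monocyte markers, 3 of 5 with values, were 23342 to 39082 normalised reads in leukaemia and 51952 to 93599 in myeloid libraries, and macrophage markers, 3 of 8, were 4953 to 6931 in leukaemia and 10545 to 15723 in myeloid libraries. The macrophage marker Vcam1 ran against that sum, at 4112 in leukaemia and 1088 in myeloid cells. Slc40a1 was at 1578 in leukaemia and 11301 in myeloid cells, and C1qa at 33.0 in leukaemia and 270 in myeloid cells. Summed markers of T and NK cells, 9 of 9 with values, were 2908 to 5874 in leukaemia and 2321 to 5638 in myeloid libraries, but most of the leukaemia sum was Nkg7, which averaged 4331 in leukaemia and 1004 in myeloid cells. The other 8 had lower means in leukaemia, such as Gzma at 0.575 in leukaemia and 1097 in myeloid cells and Cd3d at 5.92 in leukaemia and 243 in myeloid cells, and Cd3g was at 0 in every leukaemia library. Erythroid markers, 4 of 10 with values, summed to 2530 to 3526 in leukaemia and 1145 to 1552 in myeloid libraries, and most of that was Tfrc, at 2924 in leukaemia and 1178 in myeloid cells. The other 3 had lower means in leukaemia, such as Hba-a2 at 17.9 in leukaemia and 72.5 in myeloid cells. Summed B cell markers, 6 of 8, were 465 to 591 in leukaemia and 483 to 2249 in myeloid libraries, and megakaryocyte markers, 2 of 5, were 51 to 181 in leukaemia and 182 to 310 in myeloid libraries. Most of the leukaemia sum of B cell markers was Cd79b, at 464 in leukaemia and 312 in myeloid cells, and the other 5 had lower means in leukaemia. The part of such cells in the results below was not tested.

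Of the 97 members, 82 lay above the filter on low values, a mean over 1 unit above the lowest value of the table, and were tested. In leukaemia 41 were higher and 41 lower by limma at an adjusted p of 0.05. This count carries little information, because the table was preselected for genes that differ: 99.8% of all tested genes passed, 49.1% higher and 50.7% lower. A threshold on size is therefore given beside it. By at least 1 log2 unit, 4 members were higher and 14 lower, where 9.52% of all tested genes were higher by this much and 18.1% lower. In 67 of 82 members the libraries of the groups did not overlap, against 86.8% of all tested genes.

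The G1 regulators spanned a wider range of differences than the mitosis genes, which is given as a description with no test. Among 19 tested G1 regulators, 10 were higher and 9 lower, with differences from -2.10 to 3.13 and a median of 0.16. At least 1 log2 unit separated the groups in 9 of them (47.4%), 3 higher and 6 lower. By this much 9.52% of all tested genes were higher and 18.1% lower. Among 31 tested mitosis genes, 18 were higher and 13 lower, from -0.84 to 0.82 with a median of 0.23, and none reached 1 log2 unit in this fit. The median absolute difference was 0.88 for G1 regulators, 0.40 for mitosis genes and 0.64 for all tested genes. On linear folds, 11 of 19 G1 regulators (57.9%) and 3 of 31 mitosis genes (9.7%) differed by at least 2-fold, against 47.5% of all tested genes.

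**Figure D1:**
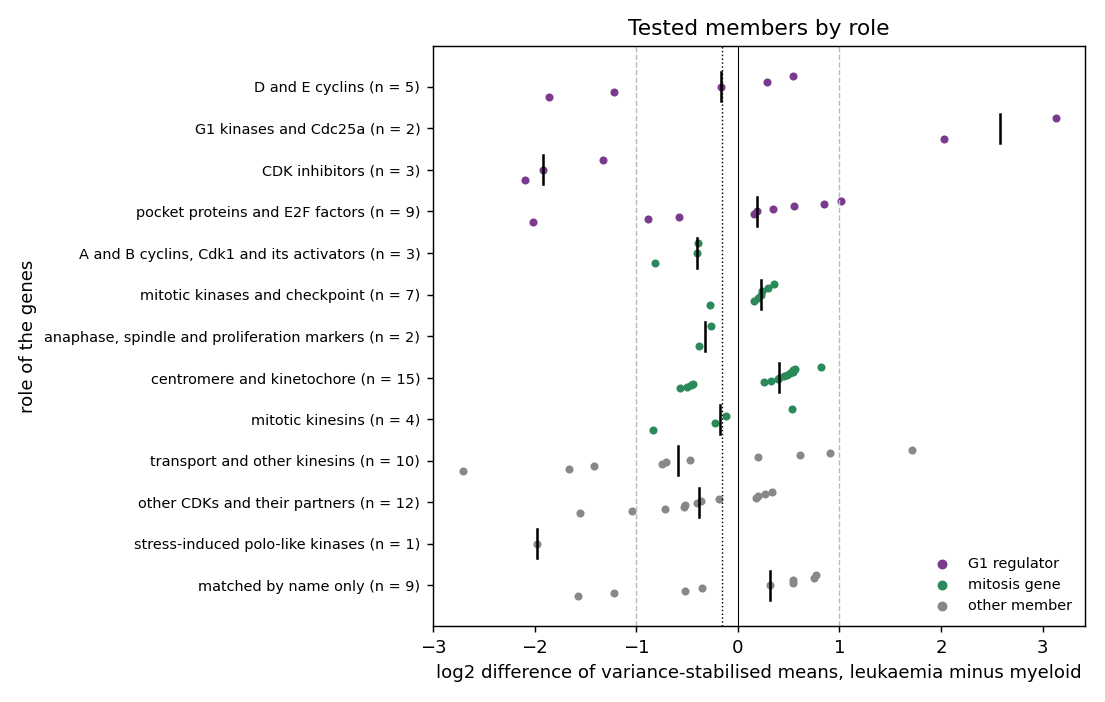
Log2 difference of variance-stabilised means, leukaemia minus myeloid, for each of the 82 tested members (points), by role from top to bottom, with the median of each role as a bar; the dotted line is the median of all tested genes, -0.16, and the dashed lines are 1 log2 unit. G1 regulators run from -2.10 to 3.13, whereas all 31 mitosis genes lie between the dashed lines.

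The kinases of the D cyclins were both higher in leukaemia. Cdk6, the kinase on which MLL-rearranged leukaemia cells are known to depend, had 20445, 17971, 22957, 20219 and 21088 normalised reads in leukaemia replicates 1 to 5, against 1782, 2085, 1644, 2220 and 1658 in myeloid replicates 1 to 5. Every leukaemia library was far above every myeloid one, with means of 20536 ± 1793 and 1878 ± 261 (SD, n = 5 each), and Cdk6 was 10.9-fold higher (log2 difference 3.13, SE 0.0852, limma adjusted p = 5.27e-12). It was the highest log2 difference of any tested member, on the scale that shrinks genes with few reads, whereas by fold Kif17 was higher (15.5-fold). Cdk4, the second D cyclin kinase, had 7701, 8929, 8707, 9810 and 9698 normalised reads in leukaemia, against 1569, 2256, 1574, 1747 and 1813 in myeloid cells. The groups lay far apart and Cdk4 was 5.01-fold higher (log2 difference 2.03, SE 0.0886, limma adjusted p = 2.23e-10). The exons of Cdk4 share 19.7% of their length with the neighbouring gene Tspan31, and the strand setting of the counting is not given in the sources used here. Per kilobase of exon, Cdk4 was the more abundant of the kinases in both groups, and Cdk6 stood at 0.536 ± 0.0729 of Cdk4 in leukaemia and 0.246 ± 0.0348 in myeloid cells, with no overlap.

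The D cyclins that activate these kinases were lower in leukaemia. Ccnd3, by far the most abundant D cyclin of both groups, had 5550, 7244, 5342, 7186 and 6150 normalised reads in leukaemia, against 19433, 29566, 23203, 24908 and 24604 in myeloid cells. No leukaemia library reached the lowest myeloid one, and Ccnd3 was 3.87-fold lower (log2 difference -1.86, SE 0.113, limma adjusted p = 4.73e-09). Ccnd2 had 109, 112, 97.8, 104 and 124 normalised reads in leukaemia, against 1181, 765, 510, 666 and 628 in myeloid cells. The groups did not overlap, myeloid replicate 1 was the highest, and Ccnd2 was 6.85-fold lower (log2 difference -1.22, SE 0.112, limma adjusted p = 2.42e-07). Ccnd1 had few reads, 111 to 199 normalised reads in leukaemia and 145 to 274 in myeloid cells, with overlapping groups and an adjusted p by limma of 0.0457 that lay just inside the threshold and was lost in 10 of the alternatives run. Per kilobase, Ccnd3 made up 94.3% ± 0.827 of the D cyclin reads in leukaemia and 95.6% ± 1.67 in myeloid cells, with overlapping groups.

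Both E cyclins, which act at the step into S phase, were higher in leukaemia by smaller amounts. Ccne2 had 1813, 1687, 1581, 1888 and 1557 normalised reads in leukaemia, against 520, 1781, 893, 1414 and 834 in myeloid cells. The groups overlapped through myeloid replicate 2, and Ccne2 was 1.57-fold higher (log2 difference 0.54, SE 0.175, limma adjusted p = 0.01). Ccne1 had 589, 608, 475, 666 and 523 normalised reads in leukaemia, against 271, 592, 344, 489 and 310 in myeloid cells. Here both myeloid replicates 2 and 4 reached the leukaemia range, and Ccne1 was 1.43-fold higher (log2 difference 0.29, SE 0.102, limma adjusted p = 0.0146). Without myeloid replicates 2 and 4 the log2 differences were 0.85 for Ccne2 and 0.46 for Ccne1. After quantile normalisation Ccne1 did not pass (0.16).

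The 3 tested CDK inhibitors were each at least 3.60-fold lower in leukaemia, where 2028 of 8077 tested genes were at least 2-fold lower. Another 3 inhibitors lay below the filter and ran the other way, as given further on. Cdkn1b, an inhibitor of the E and A cyclin kinases that rises as cells leave the cycle, had 1902, 1760, 1668, 1749 and 1571 normalised reads in leukaemia, against 8171, 10029, 9300, 9608 and 8681 in myeloid cells. The groups were well separated and Cdkn1b was 5.29-fold lower (log2 difference -2.10, SE 0.0661, limma adjusted p = 1.4e-11). The remaining pair belongs to the INK4 family, which binds Cdk4 and Cdk6 directly. Cdkn2d had 1202, 1334, 1232, 1333 and 1418 normalised reads in leukaemia, against 5169, 7942, 6414, 6154 and 6476 in myeloid cells, 4.93-fold lower with no overlap (log2 difference -1.92, SE 0.0882, limma adjusted p = 3.6e-10). Cdkn2c had 780, 887, 492, 703 and 580 normalised reads in leukaemia, against 2130, 3097, 1960, 2986 and 2227 in myeloid cells, 3.6-fold lower with no overlap (log2 difference -1.33, SE 0.121, limma adjusted p = 2.34e-07). Myeloid replicates 2 and 4 were the highest libraries for Cdkn2c.

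The remaining 3 inhibitors lay below the filter, had no test in the main fit, and ran the other way. In the alternative with no filter, 13 G1 regulators were higher and 9 lower, with these 3 inhibitors among the higher ones. Cdkn2a, which encodes an INK4 protein and the p53 activator ARF, had 145, 155, 124, 79.8 and 127 normalised reads in leukaemia, against 0, 0, 0, 10.1 and 0 in myeloid cells. Its 8 reads over the myeloid libraries all fell in replicate 4, and the other 4 libraries had 0. Cdkn1c, an inhibitor of the same family as Cdkn1b, had 207, 198, 279, 437 and 346 normalised reads in leukaemia, against 11.7, 35.5, 11, 29 and 24.5 in myeloid cells, and these groups did not overlap. Its exons share 30.7% of their length with the annotated gene Gm44732, so its reads may be split between them. Cdkn2b was close to the lowest value in both groups, at 12.1 to 33.8 normalised reads in leukaemia and 0 to 16.5 in myeloid cells, with overlap.

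**Figure D2:**
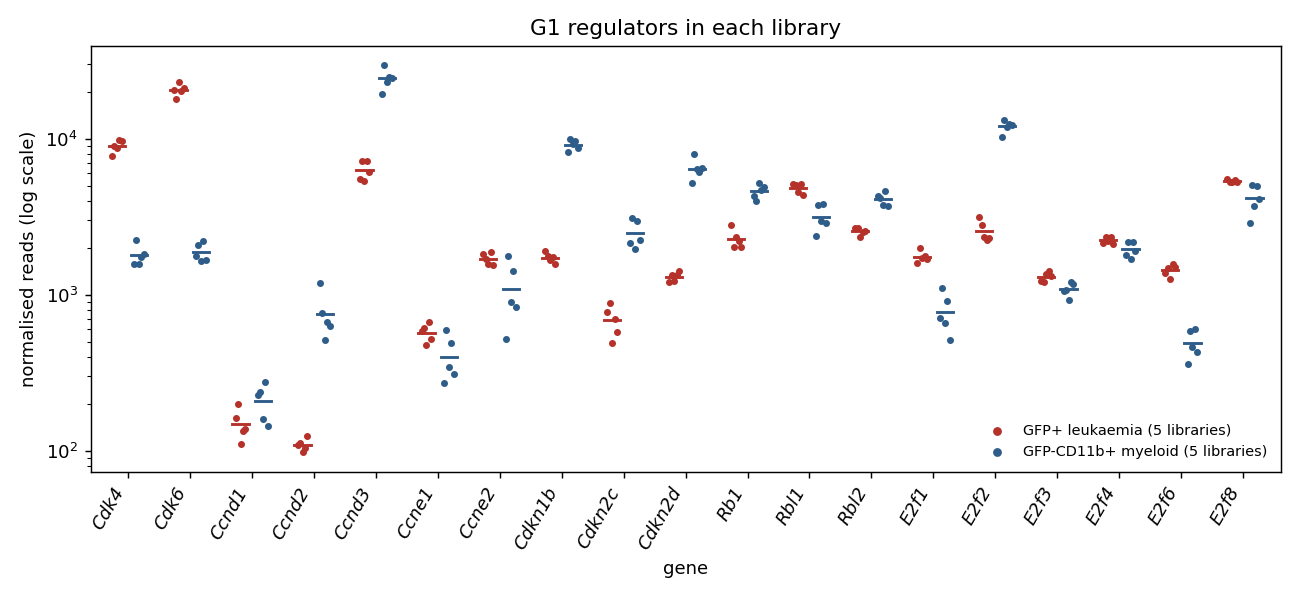
Normalised reads per library (points, log axis) and group means (bars) of the 19 tested G1 regulators, with the 5 leukaemia libraries left of the 5 myeloid libraries for each gene. Cdk4 and Cdk6 are higher in every leukaemia library, while Ccnd2, Ccnd3, Cdkn1b, Cdkn2c, Cdkn2d and E2f2 are lower in every one.

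Within a library, the ratio of 2 genes does not depend on the size factor, and the pairs that follow were chosen after their values were seen. There were 3.34 ± 0.717 normalised reads of Cdk6 for each of Ccnd3 in leukaemia and 0.0779 ± 0.0115 in myeloid cells. The sum of Cdk4 and Cdk6 over the sum of the 3 D cyclins was 4.59 ± 0.822 in leukaemia and 0.146 ± 0.0112 in myeloid cells. Kinase reads thus outnumbered D cyclin reads in every leukaemia library and were outnumbered in every myeloid one, though gene length enters both. Against its inhibitor Cdkn2d, Cdk4 stood at 6.87 ± 0.361 in leukaemia and 0.279 ± 0.0211 in myeloid cells. None of these ratios overlapped between the groups.

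The pocket proteins moved in opposite directions. Rb1, the retinoblastoma protein, had 2805, 2020, 2330, 2212 and 2036 normalised reads in leukaemia, against 4316, 3974, 5214, 4720 and 4923 in myeloid cells. The groups did not overlap and Rb1 was 2.03-fold lower (log2 difference -0.88, SE 0.0869, limma adjusted p = 5.44e-07). Rbl2, the pocket protein of resting cells, was 1.61-fold lower at 2555 ± 135 normalised reads in leukaemia libraries and 4106 ± 397 in myeloid cells (log2 difference -0.58), and was at -0.04 and not past the threshold when libraries were scaled to the total of the table. Rbl1, the pocket protein of cycling cells, was 1.53-fold higher at 4837 ± 368 normalised reads in leukaemia libraries and 3168 ± 625 in myeloid cells (log2 difference 0.55). Per kilobase, Rbl1 was 52.9% ± 1.87 of the pocket protein reads in leukaemia and 28.6% ± 4.22 in myeloid cells, with no overlap, and Rbl1 over Rb1 was 2.14 ± 0.268 in leukaemia and 0.694 ± 0.178 in myeloid cells.

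Of the 6 tested E2F factors, 5 were higher in leukaemia, against 49.1% of all tested genes, and E2f2 was lower. E2f2, an activating member, had 3165, 2796, 2332, 2241 and 2293 normalised reads in leukaemia, against 10243, 13234, 11907, 12472 and 12161 in myeloid cells. All leukaemia libraries were below all myeloid ones, and E2f2 was 4.68-fold lower (log2 difference -2.02, SE 0.0924, limma adjusted p = 3.5e-10). E2f6, a repressor that does not bind pocket proteins, had 1384, 1486, 1262, 1584 and 1494 normalised reads in leukaemia, against 357, 589, 463, 607 and 427 in myeloid cells. It was 2.95-fold higher with no overlap (log2 difference 1.02, SE 0.0811, limma adjusted p = 6.28e-08). E2f1, another activating member, had 1608, 1985, 1715, 1763 and 1690 normalised reads in leukaemia, against 705, 1107, 658, 912 and 512 in myeloid cells, with myeloid replicates 2 and 4 the highest of their group. It was 2.25-fold higher with no overlap (log2 difference 0.85, SE 0.109, limma adjusted p = 7.2e-06), and the ratio of E2f1 to E2f2 within a library was 0.696 ± 0.108 in leukaemia and 0.0646 ± 0.0162 in myeloid cells. The atypical repressor E2f8 was 1.29-fold higher (log2 difference 0.35, or 0.53 without myeloid replicates 2 and 4). E2f3 (0.19) and E2f4 (0.16), which works mainly as a repressor with pocket proteins, were higher by small amounts with overlapping groups. E2f4 did not pass when any of 6 single libraries was left out: leukaemia replicate 2, 3 or 4, or myeloid replicate 1, 3 or 5 (0.12 to 0.16).

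Among the mitosis genes, the 3 tested ones grouped under mitotic entry were lower in leukaemia, against 50.7% of all tested genes. They do not stand for mitotic entry as a whole, since Cdk1, Ccnb1, Ccnb2, Cdc25c and Foxm1 were not analysed. Ccna2, the A cyclin of S phase and G2, had 5026, 5124, 4491, 4509 and 4086 normalised reads in leukaemia, against 4807, 7359, 6141, 7334 and 5991 in myeloid cells. The groups overlapped through myeloid replicate 1, and Ccna2 was 1.36-fold lower (log2 difference -0.39, SE 0.104, limma adjusted p = 0.0028). The log2 difference of Ccna2 was -0.25 without myeloid replicates 2 and 4, its highest libraries, and turned to 0.16 after quantile normalisation and 0.21 on scaling to the table total. Cdc25b, a phosphatase that activates the mitotic kinase, had 788, 825, 812, 835 and 866 normalised reads in leukaemia, against 1532, 1878, 2014, 1732 and 1999 in myeloid cells. It was 2.22-fold lower with no overlap (log2 difference -0.82, SE 0.0623, limma adjusted p = 3.96e-08). Cdkn3, a phosphatase of cyclin-dependent kinases in spite of its symbol, was 1.58-fold lower (-0.40).

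The kinases of the spindle and its checkpoint were within 1.41-fold between the groups. In leukaemia 6 of 7 were higher, against 49.1% of all tested genes. Ttk, the kinase that starts the spindle checkpoint, had 1650, 1506, 1529, 1421 and 1427 normalised reads in leukaemia, against 836, 1139, 1079, 1318 and 986 in myeloid cells, 1.41-fold higher with no overlap (log2 difference 0.36, SE 0.0763, limma adjusted p = 0.000541). Bub1b, the checkpoint protein BUBR1, was tightly held in leukaemia at 4663 ± 52.1 normalised reads, against 3927 ± 439 in myeloid cells (0.23). Bub1 (0.30), Bub3 (0.20), Aurka, a centrosome and spindle kinase (0.16), and Plk4, the kinase of centriole duplication (0.24), were also higher by limma, with overlap for Bub1, Bub3 and Plk4. Without myeloid replicate 1 the difference of Plk4 was 0.14. Plk1, which drives mitotic entry and spindle assembly, had 2443, 2581, 2105, 2356 and 2376 normalised reads in leukaemia, against 2576, 3407, 2931, 2901 and 3052 in myeloid cells. The groups overlapped by a single leukaemia library, replicate 2, and Plk1 was 1.25-fold lower (log2 difference -0.27, SE 0.069, limma adjusted p = 0.00225), with a sign that turned to 0.07 after quantile normalisation and 0.32 on scaling to the table total.

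Of the anaphase machinery, Cdc20, which activates the anaphase-promoting complex, had 2913, 2817, 2779, 2867 and 2795 normalised reads in leukaemia, against 3320, 3916, 3337, 3555 and 3372 in myeloid cells. Every myeloid library was above every leukaemia one, and Cdc20 was 1.23-fold lower (log2 difference -0.26, SE 0.0543, limma adjusted p = 0.00053). Ube2c, the ubiquitin-conjugating enzyme of that complex, had 2469, 2469, 2414, 2499 and 2519 normalised reads in leukaemia, against 3358, 3829, 3191, 3132 and 3477 in myeloid cells, 1.37-fold lower with no overlap (log2 difference -0.38, SE 0.0565, limma adjusted p = 2.46e-05). Its exons share 22.8% of their length with Tnnc2. The direction of both genes depends on the scaling: Cdc20 turned to 0.15 after quantile normalisation and 0.34 when scaled to the table total, and Ube2c was at -0.01 and not past the threshold in the first of these and at 0.18 in the second. The ratio of Cdc20 to Bub1b within a library, which does not depend on the scaling, was 0.608 ± 0.00532 in leukaemia and 0.897 ± 0.0765 in myeloid cells, with no overlap. This pair too was chosen after its values were seen. Since Cdc20 was lower and Bub1b higher, each with no overlap, the separation of the ratio was given by that choice. The ratio does not give the direction of either gene alone.

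The mitotic kinesins were mixed. Kif23, a motor of the central spindle in cytokinesis, had 2642, 2013, 2256, 1898 and 1880 normalised reads in leukaemia, against 3797, 4469, 3828, 5174 and 3896 in myeloid cells. It was 1.98-fold lower with no overlap (log2 difference -0.84, SE 0.0959, limma adjusted p = 2.31e-06). Kif24, a centriolar kinesin, was 1.83-fold higher at 762 ± 50.3 normalised reads in leukaemia libraries and 416 ± 149 in myeloid cells (log2 difference 0.53). Kifc1, a motor of the spindle poles with a near copy, Kifc5b, in the mouse genome (-0.23), and Kif22, a motor on chromosome arms (-0.12, limma adjusted p = 0.0477), were lower by small amounts that changed sign after quantile normalisation, to 0.02 for Kifc1 and 0.19 for Kif22. At the new sign Kif22 passed and Kifc1 did not. The call of Kif22 was lost in 13 of the alternatives, among them leaving out any single library but myeloid replicate 1.

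Centromere and kinetochore genes were the largest mitotic group, and 11 of the 15 tested were higher in leukaemia, against 49.1% of all tested genes. Cenps, a histone-fold protein of the kinetochore that also serves the Fanconi anaemia pathway of DNA repair, had 601, 578, 580, 580 and 652 normalised reads in leukaemia, against 167, 274, 178, 148 and 147 in myeloid cells. The groups were far apart and Cenps was 3.27-fold higher (log2 difference 0.82, SE 0.0676, limma adjusted p = 9.26e-08), the highest difference of any mitosis gene. Cenpb, which binds centromeric satellite DNA, had 2880, 3227, 2937, 3241 and 3107 normalised reads in leukaemia, against 1839, 2011, 2061, 1689 and 1973 in myeloid cells, 1.61-fold higher with no overlap (log2 difference 0.56, SE 0.0587, limma adjusted p = 8.74e-07). Cenpx, the histone-fold partner of Cenps, was 1.8-fold higher, and Cenpw, another histone-fold subunit, was 2.38-fold higher. The subunits Cenph (1.95-fold), Cenpk (1.8-fold), Cenpn (1.77-fold), Cenpm (1.75-fold), Cenpp (1.53-fold), Cenpi (1.51-fold) and Cenpo (1.4-fold) of the constitutive centromere network were higher as well, none with overlap. After quantile normalisation 10 of these genes passed, and Cenpp did not (0.09).

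The 4 lower centromere members included the centromere histone itself. Cenpa, the histone H3 variant that marks the centromere, had 1800, 1937, 1631, 1712 and 1792 normalised reads in leukaemia, against 2458, 3270, 2719, 2454 and 2775 in myeloid cells, 1.54-fold lower with no overlap (log2 difference -0.50, SE 0.071, limma adjusted p = 1.74e-05), and was at 0.02 on scaling to the table total. Cenpf, a kinetochore protein of late G2, had 3471, 1480, 3128, 1270 and 2284 normalised reads in leukaemia, against 3308, 2540, 4342, 3547 and 4030 in myeloid cells. Leukaemia replicates 2 and 4 were the lowest of all 10 libraries and the groups overlapped (log2 difference -0.57, SE 0.209, limma adjusted p = 0.0187); without leukaemia replicate 2 the call was lost, and without replicates 2 and 4 of both groups the difference was -0.35. Cenpl (-0.46), a subunit of the constitutive network, and Cenpj (-0.44), which by its known role builds centrioles rather than centromeres, were lower with no overlap. Cenpv lay below the filter at 47.5 to 87.9 normalised reads in leukaemia and 2.72 to 44.9 in myeloid cells.

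The scaling between libraries bears on every small difference above. With the authors' size factors, the genes of the table summed to 1.56 times as many normalised reads in myeloid cells as in leukaemia. Summed over the mitosis genes, normalised reads were 52232 to 55953 in leukaemia and 49899 to 63050 in myeloid libraries, so the groups overlapped. Counted per 1000000 reads of the table, the same genes made up 2336 to 2502 in leukaemia and 1533 to 1730 in myeloid libraries, with no overlap. On scaling to the table total the median of all tested genes was 0.43, against -0.21 for the same model with the authors' size factors, a shift of 0.64, and 67.4% of all calls were then higher, against 49.2% with the authors' size factors. Of the 31 mitosis genes, 24 were then higher and 2 lower (median 0.89), and after quantile normalisation 19 were higher and 6 lower (median 0.31). With the median over the whole table subtracted, the mitosis median was 0.38 with the authors' size factors, 0.22 after quantile normalisation and 0.46 with the total. G1 regulators were 9 higher and 9 lower after quantile normalisation, and 10 higher and 7 lower with the total. Cdk4 and Cdk6 stayed higher, and Ccnd2, Ccnd3, Cdkn1b, Cdkn2c, Cdkn2d and E2f2 lower by over 1 unit, under each of these scalings.

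**Figure D3:**
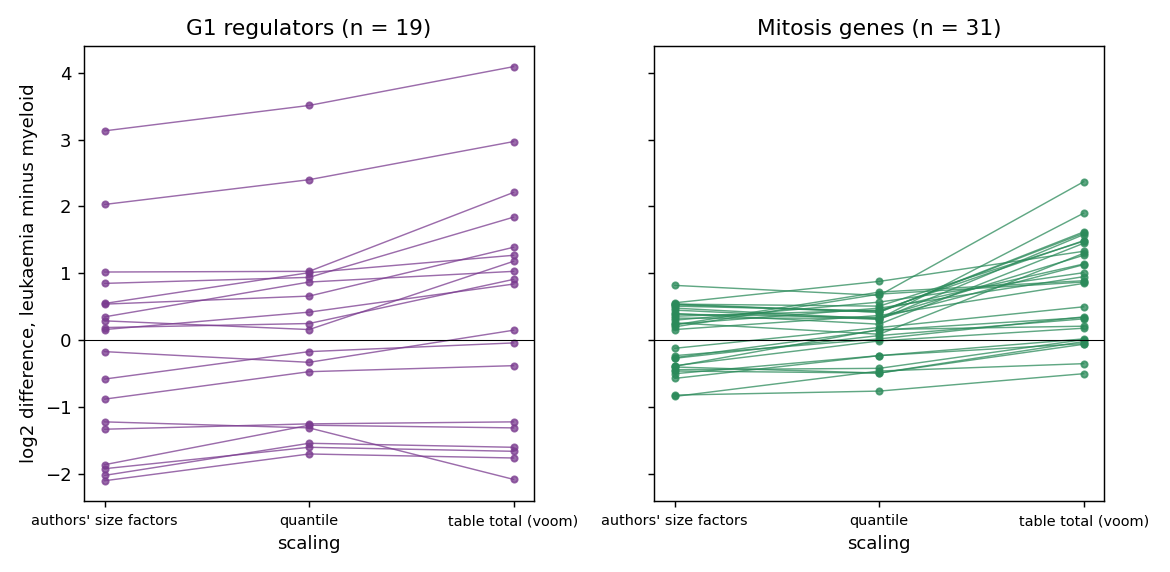
Log2 difference, leukaemia minus myeloid, of each tested G1 regulator (left, n = 19) and mitosis gene (right, n = 31) under 3 scalings on the x axis, with a line per gene; the first 2 are on variance-stabilised values and the third is fitted by voom on reads. The mitosis genes move from between -0.84 and 0.82 to mostly above 0, while the lowest and highest G1 regulators keep their sides.

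Promoter sequence was looked at because the mitosis genes are known to share promoter elements. Windows of 300 bases (250 before and 50 after each RefSeq start, build GRCm38.p6) were matched to 79 members. They were searched on both strands for the cell cycle homology region, or CHR, spelled TTTGAA or TTCGAA, for CCAAT, and for E2F motifs spelled TTTGGCGC, TTTCGCGC or GGCGGGAA. CHR and CCAAT letters shared bases in 1 of the 92 member windows, and E2F letters shared bases with neither of the others in any. A gene with several windows counts once. The last 150 bases of the window are printed for 4 lower and 2 higher mitosis genes that hold CHR letters, and for Cenps and Cdk6, the highest differences of their classes, which hold none. Capitals mark CHR letters (TTTGAA or TTCGAA, or TTCAAA on the other strand) and CCAAT (or ATTGG on the other strand), and each line reads 5′ to 3′ along the gene.
Cdc20, chr4:118437294-118437443, minus strand: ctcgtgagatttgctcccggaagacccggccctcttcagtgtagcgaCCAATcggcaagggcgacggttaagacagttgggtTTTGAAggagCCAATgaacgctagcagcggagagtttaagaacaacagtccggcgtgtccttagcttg
Ube2c, chr2:164769829-164769978, plus strand: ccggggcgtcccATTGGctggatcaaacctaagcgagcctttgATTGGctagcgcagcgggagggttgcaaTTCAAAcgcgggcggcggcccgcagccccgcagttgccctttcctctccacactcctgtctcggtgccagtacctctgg
Kif23, chr9:61946750-61946899, minus strand: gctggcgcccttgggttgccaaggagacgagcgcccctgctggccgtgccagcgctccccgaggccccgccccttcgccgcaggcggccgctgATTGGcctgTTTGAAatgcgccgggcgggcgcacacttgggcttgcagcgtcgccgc
Plk1, chr7:122159335-122159484, plus strand: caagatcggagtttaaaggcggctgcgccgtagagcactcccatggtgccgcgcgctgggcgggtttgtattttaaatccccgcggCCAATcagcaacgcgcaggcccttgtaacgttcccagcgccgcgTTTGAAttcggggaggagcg
Bub1, chr2:127831810-127831959, minus strand: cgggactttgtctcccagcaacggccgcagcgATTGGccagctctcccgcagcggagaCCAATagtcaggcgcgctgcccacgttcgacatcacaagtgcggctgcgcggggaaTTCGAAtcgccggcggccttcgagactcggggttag
Ttk, chr9:83834589-83834738, plus strand: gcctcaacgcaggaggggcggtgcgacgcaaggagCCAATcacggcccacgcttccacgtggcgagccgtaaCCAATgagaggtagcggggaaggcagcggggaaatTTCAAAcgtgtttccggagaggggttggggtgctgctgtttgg
Cenps, chr4:149137551-149137700, minus strand: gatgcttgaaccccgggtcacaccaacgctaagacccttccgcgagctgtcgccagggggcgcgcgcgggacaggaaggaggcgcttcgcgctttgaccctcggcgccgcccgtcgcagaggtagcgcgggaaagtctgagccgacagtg
Cdk6, chr5:3343793-3343942, plus strand: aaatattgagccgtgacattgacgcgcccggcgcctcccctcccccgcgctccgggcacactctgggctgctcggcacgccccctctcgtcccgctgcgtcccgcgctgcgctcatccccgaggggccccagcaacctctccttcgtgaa

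CHR letters were found in 20 of 31 mitosis genes with a window (64.5%), 5 of 16 G1 regulators (31.2%) and 4 of 32 other members (12.5%). The share was 16.2% among tested genes with a window and 21.7% among all genes of the promoter table. Every mitosis gene with CHR letters also held CCAAT (64.5%), a combination found in 3 of 16 G1 regulators (18.8%), 6.93% of tested genes and 8.61% of all. CCAAT, with or without CHR letters, was common everywhere, in 77.4% of mitosis genes, 8 of 16 G1 regulators and 43.1% of tested genes. E2F letters were found in 4 of 31 mitosis genes (12.9%), 3 of 16 G1 regulators (18.8%) and 6.73% of tested genes. Among the sequences shown, Cdc20 and Ube2c hold the CHR letters shortly before the start, whereas in Kif23, Plk1, Bub1 and Ttk they lie after it. A match says only that the letters are there.

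The directions of the mitosis genes were set beside the CHR letters. Of the 20 tested with them, 9 were higher and 11 lower (median -0.17, from -0.84 to 0.53), and of the 10 tested without them, 9 were higher and 1 lower (median 0.42, from -0.44 to 0.82). Those without are Plk4 and 9 centromere genes, among them Cenps, Cenpx, Cenph, Cenpk and Cenpb, and the lower one is Cenpj. The genes with the letters include Cdc20, Ube2c, Kif23, Plk1, Cdc25b, Cenpa and Cenpf, all lower, and Bub1, Bub1b, Ttk, Aurka, Cenpm, Cenpn and Cenpw, all higher. The split depended on the scaling: of the 20 with the letters, 11 were higher and 5 lower after quantile normalisation, and 14 were higher and 2 lower (Cdc25b and Kif23) with the table total. The 10 without them were then 8 higher and 1 lower after quantile normalisation, and 9 higher and none lower with the table total. This split was made after the values were known and was not tested, and the gene groups are not the same in role on the 2 sides.

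**Figure D4:**
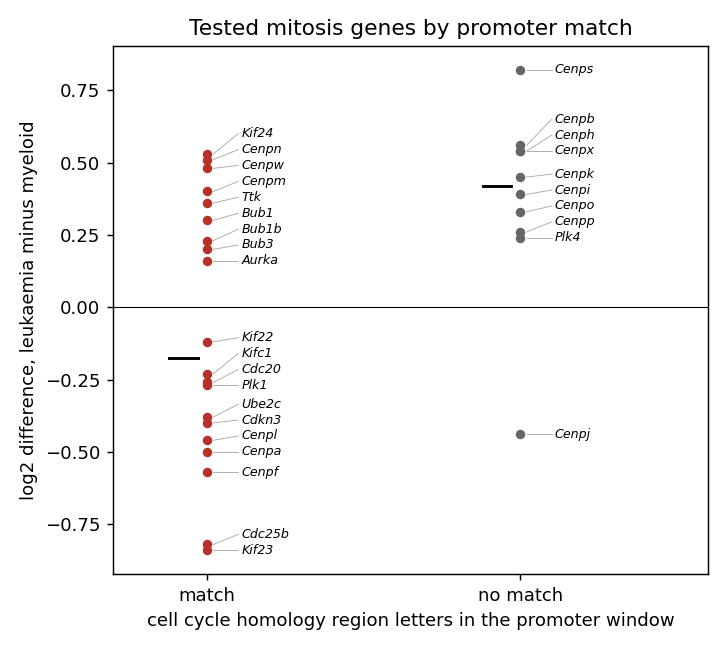
Log2 difference, leukaemia minus myeloid, of the tested mitosis genes whose promoter window holds CHR letters (left, 20 genes) or does not (right, 10 genes), with each median as a black bar. With the authors' size factors, as drawn, 11 of 20 genes with a match lie below 0 and, of those without, Cenpj alone; on scaling to the table total 5 of the 20 with a match lay below 0 and none of those without.

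The other genes of the cycle were taken from lists by role, which were chosen with earlier results of these data known. Only listed genes with values in the table, itself preselected for genes that differ, could be counted. The counts stand beside the same 49.1% higher and 50.7% lower of all tested genes. Of 13 further kinetochore genes 11 were higher and 2 lower (median 0.43), with Pmf1, a subunit that links the kinetochore to microtubules, 2.3-fold higher and Zwint, which binds the kinetochore protein Zw10, 2.1-fold higher. Hjurp, the chaperone that deposits the centromere histone, was lower like Cenpa, at 10235 ± 670 normalised reads in leukaemia libraries and 17695 ± 3419 in myeloid cells, 1.73-fold lower (log2 difference -0.74). Of 10 genes of the anaphase-promoting complex, 7 were higher and 3 lower (median 0.29), with Anapc1, its largest subunit, 1.93-fold higher and Fzr1, its activator in G1, 1.33-fold lower. Of 15 cohesin and condensin genes, 9 were higher and 6 lower (median 0.31), from Nipbl, the cohesin loader (2.06-fold higher), to Stag2, a cohesin subunit (1.95-fold lower).

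Genes of the spindle midzone and cytokinesis went both ways. Of 14 tested, 6 were higher and 8 lower (median -0.21), close to the split of all tested genes, and 9 were higher and none lower on scaling to the table total. Nusap1, which bundles spindle microtubules, was 1.66-fold lower (log2 difference -0.61), and Racgap1, the partner of Kif23 in centralspindlin, was 1.28-fold lower (-0.32). Of 19 further regulators of the kinases and of the DREAM complex, 14 were higher and 5 lower (median 0.70). Wee1, the kinase that holds mitotic entry back, had 2371, 2537, 2608, 3089 and 2778 normalised reads in leukaemia, against 433, 968, 654, 892 and 610 in myeloid cells, 3.76-fold higher with no overlap (log2 difference 1.42, SE 0.116, limma adjusted p = 8.06e-08). Mybl2, which encodes B-MYB, was 3.04-fold higher (1.25), and Skp2, which targets the Cdkn1b protein for degradation, was 2.59-fold higher (0.95). Lin54, the DREAM subunit that binds CHR elements, was 2.24-fold lower (-0.88), and Ccng2, a cyclin of arrested cells, was 2.75-fold lower (-1.24). Replication licensing genes were 20 higher and 1 lower of 21 (median 1.10).

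Among the members outside the cycle proper, 13 of 32 tested were higher and 19 lower, against 49.1% higher and 50.7% lower of all tested genes. The transport kinesins held the widest range. Kif21b, a motor of microtubule dynamics, had 3628, 2973, 3240, 3181 and 3241 normalised reads in leukaemia, against 23008, 25037, 20915, 30517 and 22783 in myeloid cells. Every leukaemia library was below every myeloid one and Kif21b was 7.52-fold lower (log2 difference -2.71, SE 0.0931, limma adjusted p = 2.87e-11). This was the lowest log2 difference of any tested member, whereas by fold Plk3 was lower (18.2-fold). Kif17, a motor known from dendrites and cilia, had 958, 915, 1084, 982 and 989 normalised reads in leukaemia, against 67.6, 81.5, 59.8, 53 and 55.7 in myeloid cells, 15.5-fold higher with no overlap (log2 difference 1.71, SE 0.0513, limma adjusted p = 9.64e-12).

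The heterotrimeric kinesin of cilia and vesicle transport was split between its subunits. Kif3b, a motor subunit, had 1458, 1317, 1381, 1130 and 1266 normalised reads in leukaemia, against 4568, 5521, 5159, 5371 and 5685 in myeloid cells, 4.02-fold lower with no overlap (log2 difference -1.66, SE 0.0686, limma adjusted p = 1.43e-10). Kifap3, its adaptor subunit, had 544, 649, 502, 599 and 491 normalised reads in leukaemia, against 145, 194, 128, 154 and 57.1 in myeloid cells, 4.11-fold higher with no overlap (log2 difference 0.91, SE 0.0875, limma adjusted p = 3.95e-07). Kif3a, the other motor subunit, lay below the filter at 147 to 218 normalised reads in leukaemia and 53.2 to 101 in myeloid cells. Kif1c, a vesicle motor, was 3.63-fold lower (-1.42), and Kif2a, a microtubule depolymerase (-0.75), Kif13b (-0.71) and Kif5b, the heavy chain of conventional kinesin (-0.47), were lower by less. Kif5b turned to 0.11 after quantile normalisation and 0.13 with the table total. Kifc3 was higher (0.61, or 0.35 without myeloid replicates 2 and 4), and its exons share 27.5% of their length with other genes, so its reads are uncertain. Kif13a was higher by 0.20 with overlap, and did not pass without leukaemia replicate 1 or without myeloid replicate 3.

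With Kif3a, 8 kinesins lay below the filter. Kif21a, a relative of Kif21b, had 334, 321, 435, 267 and 328 normalised reads in the leukaemia libraries, with 0 reads in all 5 myeloid libraries. Set against a floor of 3 reads per library, it was at least 90.7-fold higher. Kif19a, a ciliary kinesin, had 285, 263, 259, 277 and 252 normalised reads in leukaemia, against 32.6, 8.27, 56.2, 8.83 and 12.2 in myeloid cells, without overlap. Kifc2 was at 5.75 to 23.8 normalised reads in leukaemia and 70.6 to 84.3 in myeloid cells, and Kif5a at 10.2 to 25.1 in leukaemia and 38.5 to 70.9 in myeloid cells. Kif9, Kif26b and Kif7 also lay below it, with 169 normalised reads or fewer in every library.

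Of the kinases of transcription and other cyclin-dependent kinases, 8 of 12 tested were lower, against 50.7% of all tested genes. Cdk11b, a kinase of transcription and splicing, had 2780, 2664, 2740, 2591 and 2762 normalised reads in leukaemia, against 8402, 9019, 8760, 10285 and 8628 in myeloid cells, 3.33-fold lower with no overlap (log2 difference -1.55, SE 0.0611, limma adjusted p = 9.5e-11). Cdk17 had 1390, 1100, 1291, 1361 and 1155 normalised reads in leukaemia, against 2986, 3010, 3281, 3609 and 2814 in myeloid cells, 2.49-fold lower with no overlap (log2 difference -1.04, SE 0.0709, limma adjusted p = 1.32e-08). The elongation kinases Cdk9 (-0.53), Cdk12 (-0.40) and Cdk13 (-0.72) were lower, as were Cdk5 (-0.36), a kinase best known from neurons, and Cdk16 (-0.19). The Mediator kinases were split, Cdk8 higher (0.20) and Cdk19 lower (-0.52). Cdk7, the kinase that activates other members of the family, was higher (0.27), and so were Cdk10 (0.18) and Cdk20 (0.34). Signs under 1 unit in this group depend on the scaling: with the table total Cdk5, Cdk9, Cdk12, Cdk16 and Cdk19 were at 0.04 to 0.39, and Cdk13 stayed lower. Cdk14 and Cdk18 lay below the filter, Cdk14 at 27.3 to 45.4 normalised reads in leukaemia and 65 to 349 in myeloid cells, and Cdk18 at 16.2 to 57.7 in leukaemia and 0 to 12.2 in myeloid cells.

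Plk3 and Plk2, polo-like kinases induced by stress and serum rather than by mitosis, were unlike Plk1 and Plk4 in size. Plk3 had 151, 45.8, 118, 45.8 and 72.4 normalised reads in leukaemia, against 2302, 720, 2158, 545 and 2166 in myeloid cells. All leukaemia libraries were below all myeloid ones, and in both groups replicates 2 and 4 lay below replicates 1, 3 and 5. Plk3 was 18.2-fold lower in leukaemia (log2 difference -1.98, SE 0.266, limma adjusted p = 1.03e-05), with a log2 difference of -2.49 without myeloid replicates 2 and 4. Plk2 lay below the filter with 13.1, 0, 7.19, 15.3 and 24.1 normalised reads in leukaemia, against 520, 118, 386, 47.9 and 330 in myeloid cells, and replicates 2 and 4 were again the lowest of the myeloid group.

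The rule also took 9 genes by their names alone. Cdk2ap2, named for binding to a kinase-associated protein, had 2488, 3075, 2626, 2949 and 2779 normalised reads in leukaemia, against 10004, 10335, 7992, 9913 and 8587 in myeloid cells, 3.36-fold lower (log2 difference -1.57, SE 0.0801, limma adjusted p = 8.79e-10). Ccndbp1, a D cyclin binding protein, was 2.98-fold lower at 1065 ± 24.4 normalised reads in leukaemia libraries and 3176 ± 341 in myeloid cells (log2 difference -1.22). Cdk5rap1, an enzyme of mitochondrial transfer RNA, was 3.12-fold higher at 563 ± 26.6 normalised reads in leukaemia libraries and 181 ± 51.4 in myeloid cells (0.77). Cdk5rap3 (0.75), Cdk5rap2, a centrosome protein (0.54), Cdk2ap1 (0.54) and Cdkn2aipnl (0.32) were higher, and Aurkaip1, a protein of the mitochondrial ribosome (-0.52), and Cdkn2aip (-0.35) were lower.

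Myeloid replicates 2 and 4 stood apart from the other 3 myeloid libraries in many members. Among the 22 G1 regulators both lay above the other 3 in 14 and below them in none; among the 32 mitosis genes both lay above in 11 and below in none; and among all tested genes both lay above in 2597 and below in 1054 of 8079. Leukaemia replicates 2 and 4 also lay apart from the other leukaemia libraries, in fewer genes: above them in 4 and below in 1 of the 22 G1 regulators, above in 7 and below in 3 of the 32 mitosis genes, and above in 1421 and below in 1267 of all 8079 tested. In the myeloid group Ccne2 was 2.13-fold, Ccne1 1.75-fold, E2f1 1.61-fold and Cdkn2c 1.44-fold higher in the mean of replicates 2 and 4 than in the other 3. Some sums of cell type markers also set myeloid replicates 2 and 4 apart, and others did not. The sum of the leukaemia and early granulocytic markers was 51627 and 33657 normalised reads in myeloid replicates 2 and 4, against 22824 to 24897 in the other 3. Its members Hoxa9 and Meis1 did not follow, with Meis1 at 87.5 and 88.3, against 58.4 to 139. The sum of the monocyte markers was 51952 and 56498, against 81911 to 93599, and that of the sorted myeloid cells 2945356 and 2388435, against 1816063 to 1999382. Summed B cell markers were 537 and 483, against 1033 to 2249. Macrophage markers summed to 15106 and 15723, against 10545 to 11044, but C1qa ran against that sum, at 17.7 and 0, against 351 to 532. Erythroid markers summed to 1552 and 1359, against 1145 to 1319, but Hba-a2 ran against that sum, at 3.55 and 6.31, against 99.2 to 138. T and NK cell markers (3951 and 2321, against 2647 to 5638) and megakaryocyte markers (269 and 226, against 182 to 310) did not set these replicates apart. The part of these cells in the values of the members was not tested. Without myeloid replicates 2 and 4, G1 regulators were 10 higher and 8 lower, and mitosis genes 18 higher and 12 lower. Ccnd1, Cdk8 and Kif22 then no longer passed.

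**Figure D5:**
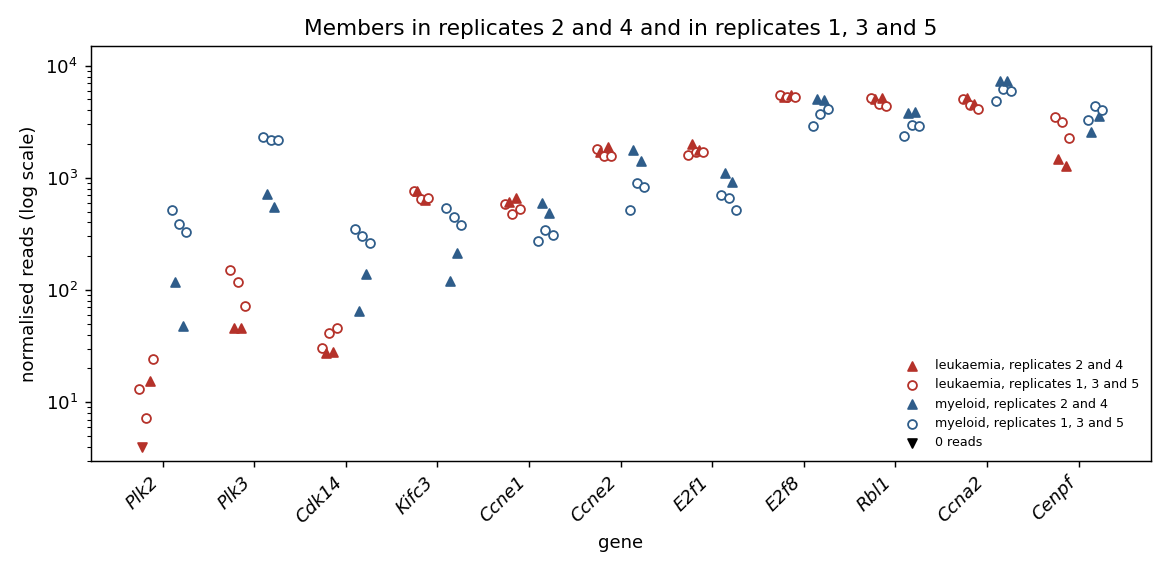
Normalised reads (log axis) of 11 members in the 5 leukaemia libraries (left, red) and the 5 myeloid libraries (right, blue) of each gene, with replicates 2 and 4 as filled triangles and the rest as open circles; a downward triangle at the foot marks 0 reads. In both groups the triangles lie below the circles for Plk3 and Cdk14 and above them for Ccne1 and E2f1. In myeloid cells alone they also lie below them for Plk2 and Kifc3 and above them for Ccne2, E2f8, Rbl1 and Ccna2. For Cenpf the leukaemia triangles are the lowest of all 10 libraries.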

How the data were processed

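The deposited file gives 10141 genes in 10 libraries as log2 values that the authors had normalised and variance-stabilised. The submitters' processing notes name HISAT2 (2.0.4 and 2.2.1) and DESeq2. Genome build, annotation, counter and strand setting are not given in the sources used here. The lowest value, 8.1823, stands for 0 reads. The transform was inverted in closed form, and 100.0% of low values in each library (up to 100 reads, tolerance 0.1 read) came out as whole reads, which gave reads and size factors. limma (3.58.1, R 4.3.3, trended prior) was fitted to the deposited log2 values of 8079 genes with a mean over 1 unit above the lowest value, leukaemia minus myeloid, two-sided, with Benjamini-Hochberg adjustment over all 8079. The fit was also run on simulated data in which few genes differed. That setting is unlike this preselected table, so it does not check the adjusted p-values given here. The highest unadjusted p in the table was 0.243, so adjusted p-values describe genes already selected for a difference.

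The members, the gene lists, the classes and the rule for naming genes were chosen with earlier results of these data known. Values per library were given, in each role, for at most the 2 highest and 2 lowest passing differences and the most abundant member, and for some members below the filter. Exon lengths and shared exons come from GENCODE (GRCm38), which matched all 97 member names, and promoters from RefSeq. Precision is limited by 5 libraries per group and by reads of the table only, since full depth is unknown. Alternatives were other filters, quantile normalisation, voom with the authors' size factors or the table total, no trended prior, all 55341 annotated genes as tests, a replicate block, and leaving out libraries.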

Additional observations from a re-analysis of the deposited data

Results flagged for a closer look

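In 164 groups of 5 libraries (82 tested members in each of the groups), 2 held a library whose gap to its nearest neighbour, over the range of the group, was above Dixon's critical value of 0.71. Chance alone gives about 1 such library in 20 groups. Bub3, of the spindle checkpoint, had 4550 normalised reads in myeloid replicate 2, against 3715 to 3906 in the other 4 myeloid libraries. Cenps, of the kinetochore, had 274 normalised reads in myeloid replicate 2, against 147 to 178 in the other 4.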

How the results depend on the processing

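Over 1622 comparisons of single tested members with an alternative, 1538 kept their direction and their side of the threshold. Another 61 kept the direction but did not pass and 23 reversed in sign, whether or not they passed on the new side, and these changes fell in 35 genes in all. All 82 tested members passed in the main fit, so no call could be gained. With no filter, 51 of the 97 members were higher and 46 lower, in a fit that also tests genes with few reads. After quantile normalisation the log2 differences that reversed were those of Ccna2 (0.16), Cdc20 (0.15), Cdk19 (0.00), Kif22 (0.19), Kif5b (0.11), Kifc1 (0.02) and Plk1 (0.07), and 6 mitosis genes were lower. Of these reversed genes only Cdc20 and Kif22 passed on the new side. With voom and the table total as the scale the reversed differences were those of Ccna2 (0.21), Ccnd1 (0.15), Cdc20 (0.34), Cdk12 (0.15), Cdk16 (0.39), Cdk19 (0.05), Cdk5 (0.04), Cdk9 (0.04), Cdkn2aip (0.14), Cenpa (0.02), Cenpj (0.01), Kif22 (0.50), Kif5b (0.13), Kifc1 (0.35), Plk1 (0.32) and Ube2c (0.18). Here Ccna2, Cdc20, Cdk16, Kif22, Kifc1, Plk1 and Ube2c passed on the new side, and the others did not. In that scaling 20 members were lower and 32 were higher by at least 1 log2 unit, 8 of them G1 regulators and 14 mitosis genes, and 2 mitosis genes were lower. The shift of all genes by the scaling is part of how it is built. With voom and the authors' size factors 11 members were higher by at least 1 log2 unit, 2 of them mitosis genes, and 1 mitosis gene was lower by as much; voom works on log2 reads, which do not shrink genes with few reads. With the stricter filter, which tests fewer genes, 26 members and 11 mitosis genes were higher. Counting every annotated gene as a test left 5 G1 regulators higher.

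With any single library left out, 39 to 41 members were higher and 39 to 40 lower, G1 regulators were 9 to 10 higher and 8 to 9 lower, and mitosis genes were 17 to 18 higher and 11 to 13 lower. Fits without myeloid replicates 2 and 4, or without replicates 2 and 4 of both groups, were added after seeing the data, and 41 members were higher and 39 lower in each. Replicate numbers were not taken as a pairing: deviations of same-numbered libraries correlated at 0.13, 0.232, 0.316, 0.29 and -0.022, so 4 of 5 were over 0.1 and the fifth was not, and not every leukaemia library correlated best with its own number. With a replicate block 41 members were higher and 40 lower, and the call of Kif22 was lost.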
